A study of Mus musculus with 12 samples.

Results

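The nuclear genes of oxidative phosphorylation were described in mouse embryonic stem (ES) cells before and during inhibition of the mTOR kinase. A gene was a member when its symbol began with Ndufa, Ndufb, Ndufc, Ndufs, Ndufv, Uqcr, Cox4 to Cox8 or Atp5, or was Sdha, Sdhb, Sdhc or Sdhd, with symbols ending in -ps left out, so that no expression value entered the choice. The rule found 98 of 54446 gene identifiers (97 symbols, since Atp5o has 2 identifiers). By annotated type 94 of them code for protein, and 4 are processed pseudogenes with a subunit's name (Ndufa11b, Ndufb4c, Ndufs6b and Cox6c2), which the rule counts under their complex. It took in 39 complex I subunit genes, 8 complex I assembly factors of the Ndufaf series, 4 complex II subunits, 8 complex III subunits, 21 complex IV genes (counting Ndufa4 and Ndufa4l2, which carry a complex I name but belong with cytochrome c oxidase), 17 complex V genes and Atp5s, a gene named after ATP synthase.

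RNA sequencing had been carried out on 12 libraries, which were 2 replicates each of KH and DNMT3ABKO cells at 0, 72 and 144 h. The 0 h cells received no inhibitor, and the other cells had been kept for the stated time in INK128, which inhibits the mTOR kinase (mTORi). KH is the wild-type line, and DNMT3ABKO lacks Dnmt3a and Dnmt3b, the enzymes of de novo DNA methylation. Each genotype was represented by 1 line, both on feeders, a layer of fibroblasts made unable to divide with mitomycin, and sorted before RNA extraction. The labels also carry the name E14 for both lines, while in the methods the wild-type line is KH2. No library came from cells kept without inhibitor for 72 or 144 h, so inhibition and time in culture cannot be told apart, and the labels do not describe the cultures behind the replicates, while the study states in general that experiments were repeated independently and that the time points of a replicate were handled together. The p-values measure the spread between these libraries.

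Oxidative phosphorylation passes electrons from NADH, at complex I, and from succinate, at complex II, through ubiquinone to complex III, on through cytochrome c to complex IV, where oxygen is reduced. Complexes I, III and IV pump protons out of the mitochondrial matrix, and complex V, the ATP synthase, makes ATP from their return. A few catalytic subunits are encoded by the mitochondrial genome, whereas most subunits are nuclear genes whose proteins are imported, and several of these exist as isoforms with expression restricted to particular tissues. Naive ES cells use both respiration and glycolysis, and mTOR is known to promote the synthesis of mitochondrial proteins.

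Values are TPM, the estimated share of each gene's transcripts in a library's RNA scaled to a sum of 1000000. They keep no read depth, and with 0 spike-in rows listed they cannot show a change in RNA per cell. In such bulk libraries, fewer cells of a type and less RNA per cell cannot be told apart. Of the deleted genes, Dnmt3a was at 54.7 to 143.6 TPM in KH and 7.35 to 21.9 TPM in DNMT3ABKO, and Dnmt3b at 142 to 258 and 12.7 to 27.5 TPM. Replicates correlated at 0.985 (DNMT3ABKO 0 h) to 0.996. The DNMT3ABKO 0 h replicates stood apart from each other, with 6721 and 19050 TPM summed over the 13 subunits of the mitochondrial genome, so median differences from DNMT3ABKO 0 h are also given without replicate 1. Cell type markers moved with time in both lines. The 8 ES cell markers summed to 3663 to 3872 TPM at 0 h and to 4999 to 5760 TPM later. Of these sums Dppa5a alone held 1864 to 2044 TPM at 0 h and 2748 to 3209 TPM later. Called higher were 100% and 87.5% of the markers in KH at 72 and 144 h, and 75% in DNMT3ABKO at both times. In DNMT3ABKO at 72 h 12.5% were called lower, and Nanog went from 227.3 and 301.2 TPM at 0 h to 191.2 and 179.8 TPM. The 20 fibroblast markers summed to 3198 to 3942 TPM at 0 h, 1251 to 1531 TPM at 72 h and 561 to 795 TPM at 144 h, with 18 or 19 of the 19 tested lower in every comparison with 0 h, and no fibroblast marker was at 0 in both libraries of a group. The 10 macrophage markers summed to 248 to 306, 117 to 177 and 20.5 to 36.3 TPM, with 8 to 10 of 10 lower, and 1 of them was at 0 in both KH 144 h libraries. The part of these changes in the results below was not tested.

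Summed over all members, the oxidative phosphorylation genes took a smaller share of the RNA under mTORi in both lines. Their sum was 12909 and 13584 TPM in the KH 0 h libraries, 11493 and 11530 TPM at 72 h, and 11108 and 11183 TPM at 144 h. In DNMT3ABKO it was 12156 and 13320 TPM at 0 h, 11185 and 11158 TPM at 72 h, and 11497 and 11301 TPM at 144 h. The 0 h libraries lay above the treated libraries of the same line, without overlap. As a percentage of nuclear protein-coding TPM, the members held 1.99 to 2.03% in the 4 libraries at 0 h and 1.67 to 1.77% in the 8 treated ones. With 2 libraries a group, an exact permutation test of such a sum cannot reach a two-sided p below 0.3333.

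Each complex was lower in the treated libraries. Complex III took the largest relative loss in KH, from 1330 and 1360 TPM at 0 h to 1053 and 1063 TPM at 72 h and 1010 and 998 TPM at 144 h, and complex V went from 4759 and 5071 TPM to between 4178 and 4208 TPM. Complex I subunits went from 2989 and 3052 TPM to 2664 and 2679 TPM at 144 h, and complex IV from 3344 and 3565 TPM to 2790 and 2855 TPM. Complex II, the only complex with no subunit from the mitochondrial genome, moved least in KH for its level, from 345 and 378 TPM to 319.8 and 327 TPM. In DNMT3ABKO the treated libraries also lay below both 0 h libraries for every complex, but the 0 h replicates of complex IV lay at 2940 and 3395 TPM, against 2870 to 2910 TPM under treatment.

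**Figure D1:**
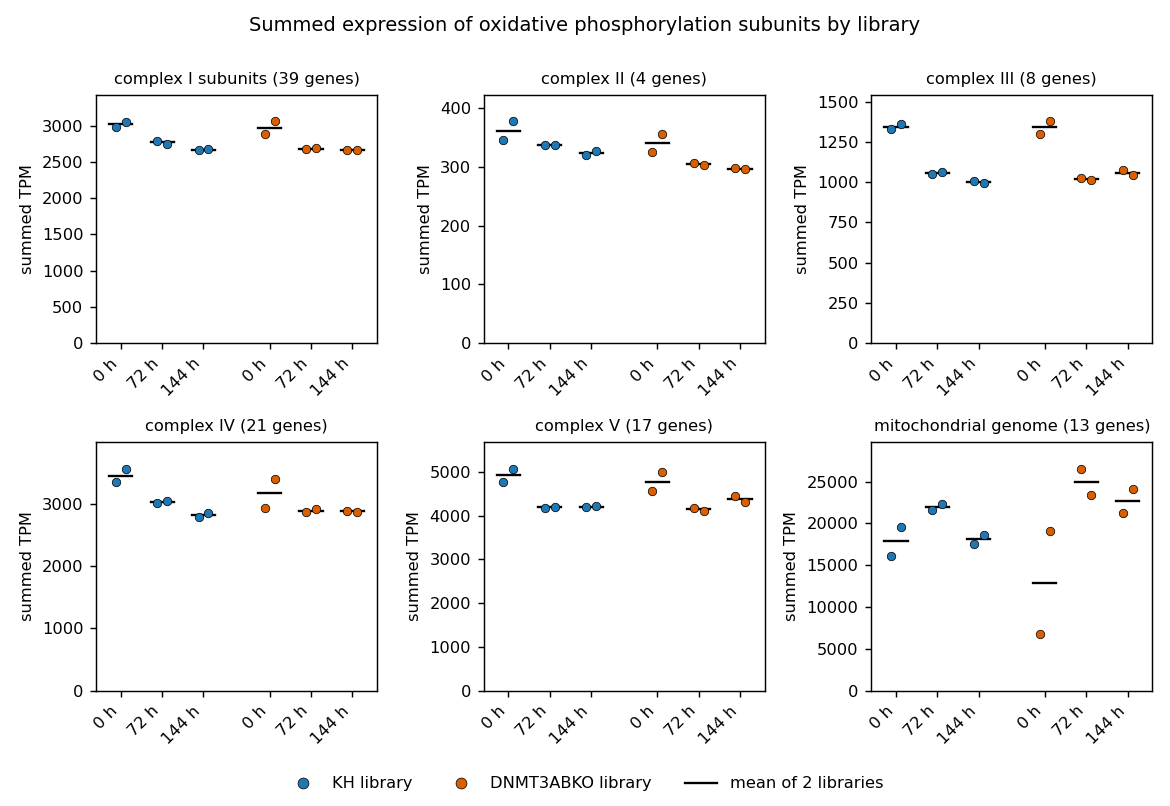
Summed TPM per library (y axis, from 0) of the nuclear genes of each complex and of the 13 subunits of the mitochondrial genome, for KH (blue) and DNMT3ABKO (orange) at 0, 72 and 144 h, where each point is 1 library and the bar is the mean of 2. Every nuclear complex is lower under mTORi in both lines, while the mitochondrial-genome sum is not, and its DNMT3ABKO 0 h libraries lie at 6721 and 19050 TPM.

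Single genes were compared with limma on log2(TPM + 1) in 1 fit of all 12 libraries, over the 15727 genes whose mean reached 1 TPM, and calls were made where the p adjusted over all of them by Benjamini and Hochberg's method was under 0.05. Differences are on that log2 scale, which understates the change of low genes. Of the 98 members, 91 were tested. The other 7 were Ndufa11b, Ndufs6b, Cox4i2, Cox6a2, Cox8b and Cox8c, each below 1 TPM in all libraries, and the second Atp5o identifier, at 7.05 TPM in KH 72 h replicate 2 and at 0 in the others. In KH at 72 h, 43 members fell and 4 rose, with a median difference of -0.24, where 47.8% of all genes tested were called (28.3% higher and 19.5% lower) with a median of 0.08. At 144 h in KH, 47 fell and 4 rose, with a median of -0.32, where 51.3% of all genes were called (27.4% higher and 23.9% lower).

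In DNMT3ABKO at 72 h, 44 members fell and 8 rose, with a median difference of -0.20, where 56% of all genes were called (34.3% higher and 21.6% lower). At 144 h in DNMT3ABKO, 50 fell and 10 rose, with a median of -0.26, where 57.6% of all genes were called (31.4% higher and 26.2% lower). Without DNMT3ABKO 0 h replicate 1 the members' median difference was -0.305 at 72 h and -0.346 at 144 h. Without replicate 2 it was -0.138 and -0.174. Medians by complex, without replicate 1, were -0.305 and -0.317 for complex I subunits at 72 and 144 h. Its assembly factors had -0.149 and -0.256, and complex II -0.27 and -0.267. Complex III had -0.339 and -0.352, complex IV -0.143 and -0.16, and complex V -0.377 and -0.389. In KH at 72 h the 47 calls became 31 without KH 72 h replicate 1 and 30 without replicate 2. Another scaling of the libraries, by the median ratio of all genes, moved the split of all calls to 25% higher and 27.5% lower in KH at 72 h and to 29.5% and 29.7% in DNMT3ABKO at 72 h, where it shifted the median of all genes by -0.111. Relative to the median of all genes, the members' median lay at -0.32, -0.37, -0.32 and -0.31 in the order of these 4 comparisons as deposited, and at -0.34, -0.37, -0.34 and -0.32 under that scaling.

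Across the 2 lines, which share no library, 38 members fell in both at 72 h and 41 in both at 144 h, where 15.34% and 19.35% of all genes tested did so. Cox6b2 and Cox7a2l rose in both lines at both times. Opposite calls numbered 0 of 91 in limma at either time, and 0 of the 43 and 48 members called in both lines at an unadjusted p under 0.05. The 2 times within a line share their 0 h libraries. In all 4 comparisons with 0 h, 35 members were lower, against 12.63% of all genes tested, and 20 members were called in none, against 21.4%.

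**Figure D2:**
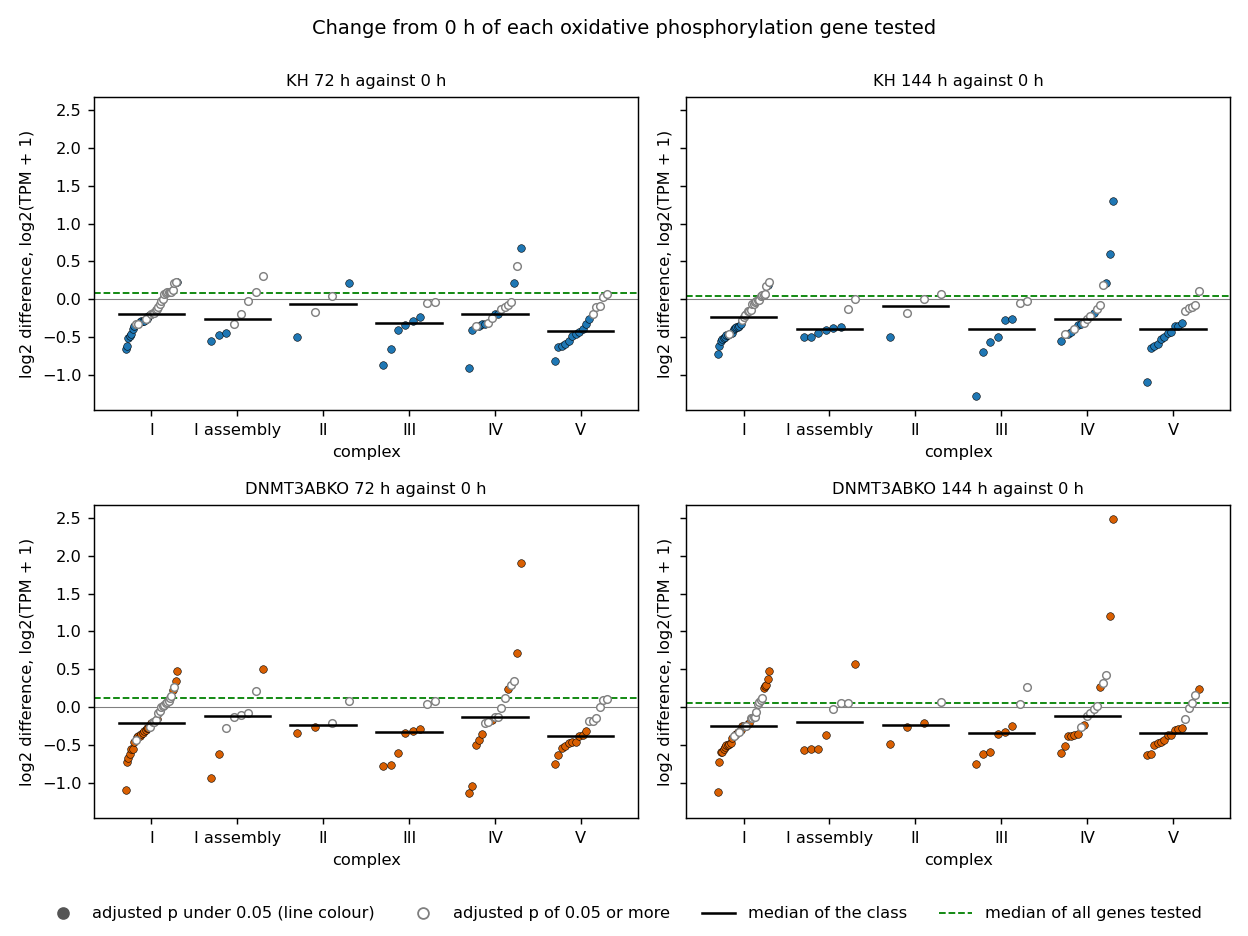
Difference from 0 h on the log2(TPM + 1) scale (y axis) of each member tested, by complex (x axis), in KH (upper panels) and DNMT3ABKO (lower panels) at 72 and 144 h. Filled points passed an adjusted p of 0.05, black bars are class medians and the dashed line is the median of all genes tested, which lies above the median of every complex in all 4 panels.

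Complex I, which oxidises NADH, had 37 tested genes, 36 of them protein-coding, and those lay at 34.4 (Ndufc1) to 220.1 TPM (Ndufa7) in KH at 0 h. The other, the pseudogene Ndufb4c, was at 30.7 TPM. In KH, 15 subunits fell and 1 rose at 72 h and 17 fell and 1 rose at 144 h, and in DNMT3ABKO 18 fell and 3 rose, then 19 fell and 5 rose, with class medians of -0.19, -0.23, -0.20 and -0.25. Ndufa2, an accessory subunit of the arm that receives electrons, was at 79.0 and 69.2 TPM in KH at 0 h, at 48.8 and 44.8 TPM at 72 h and at 44.9 and 44.3 TPM at 144 h. DNMT3ABKO libraries had it at 100.6 and 66.7 TPM at 0 h, at 39.5 and 36.4 TPM at 72 h and at 40.5 and 34.4 TPM at 144 h. The treated libraries lay below both 0 h libraries in each line. The differences were -0.65 ± 0.16 (SE) and -0.72 ± 0.16 in KH and -1.09 ± 0.16 and -1.11 ± 0.16 in DNMT3ABKO, with adjusted p of 0.00823, 0.0043, 0.000307 and 0.000224.

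The core subunits of complex I moved apart from each other. Ndufs8, which carries iron-sulphur clusters, was at 57.6 and 60.8 TPM in KH at 0 h and at 37.9 to 41.1 TPM under treatment, and at 52.2 and 65.3 TPM and 34.9 to 41.6 TPM in DNMT3ABKO. Its differences were -0.61 and -0.56 in KH and -0.73 and -0.53 in DNMT3ABKO, all called. Ndufv2, which holds a further iron-sulphur cluster, also fell in all 4 comparisons, by 0.20 to 0.36, and its KH calls were lost without KH 0 h replicate 2 (adjusted p = 0.149 at 72 h and 0.208 at 144 h) and without either treated KH replicate (0.0625 to 0.179). Ndufv1, the subunit that binds NADH and FMN, rose in 3 of them. It was at 99.1 and 99.7 TPM in KH at 0 h, at 119.7 and 114.8 TPM at 72 h and at 109.9 and 116.5 TPM at 144 h (differences 0.23 and 0.18). In DNMT3ABKO it was at 103.9 and 93.5 TPM at 0 h, at 107.8 and 107.6 TPM at 72 h (0.13, adjusted p = 0.128) and at 120.7 and 118.8 TPM at 144 h (0.28). The KH calls of Ndufv1 were lost under median-ratio scaling (adjusted p = 0.241 at 72 h and 0.204 at 144 h) at 72 h without KH 0 h replicate 1 (0.0568) or KH 72 h replicate 1 (0.0986), and at 144 h without any 1 of the 4 libraries compared (0.0614 to 0.213) and with a replicate block (0.0655), which also ended the Ndufv2 call in KH at 144 h (0.0622). The DNMT3ABKO call at 144 h was lost under median-ratio scaling (0.0536). Ndufs1 rose in DNMT3ABKO at 144 h alone (0.26, adjusted p = 0.0595 without DNMT3ABKO 144 h replicate 2). Ndufs3 and Ndufs7 passed the test in none of the 4.

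Among the other subunits, Ndufa5 fell in 3 of 4 comparisons and by 0.72 in DNMT3ABKO at 144 h. Chosen after its values were seen, Ndufa7 was the most abundant complex I subunit in KH at 0 h. It stood at 223 and 217 TPM there and at 241 to 268 TPM under treatment, with no call. In DNMT3ABKO it rose from 169 and 206 TPM to between 254 and 269 TPM (0.48 at both times). The line difference in the response of Ndufa7 was not called in limma (adjusted p = 0.327 at 72 h and 0.188 at 144 h). Ndufb4 and the pseudogene Ndufb4c share near-identical sequence, so their reads may have been split between them. Of the 8 assembly factors, at 10.8 to 29.7 TPM, 3 and 6 fell in KH and 2 and 4 in DNMT3ABKO at 72 and 144 h. Ndufaf4 rose in DNMT3ABKO alone, from 13.98 and 18.9 TPM at 0 h to 23.0 and 23.8 TPM at 72 h and 23.7 and 25.8 TPM at 144 h (0.50 and 0.57). In KH it was at 17.4 to 22.2 TPM in all 6 libraries. The line difference in its response was not called, and its 72 h call was lost without DNMT3ABKO 0 h replicate 1 (adjusted p = 0.0796) and without 72 h replicate 2 (0.0645).

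Complex II couples succinate oxidation in the citric acid cycle to ubiquinone reduction, through the flavoprotein Sdha, the iron-sulphur protein Sdhb and the membrane anchors Sdhc and Sdhd. Sdhd was at 110.3 and 124.1 TPM in KH at 0 h and at 80.4 to 84.8 TPM under treatment. Its level in DNMT3ABKO was 94.0 and 107.6 TPM at 0 h, at 80.0 and 77.9 TPM at 72 h and at 71.8 and 71.0 TPM at 144 h. Sdhd fell in all 4 comparisons, by 0.35 to 0.50, with no overlap between treated and 0 h libraries. Sdha, at 115.5 and 124.9 TPM in KH at 0 h, was at 140.4 and 137.8 TPM at 72 h (0.21, adjusted p = 0.0388) and at 124.8 and 128 TPM at 144 h, and was not called elsewhere. Its 72 h call was lost without KH 0 h replicate 1 (0.199) and without either KH 72 h replicate (0.153 and 0.112), and with a replicate block (0.0567). In DNMT3ABKO, Sdhb fell at both times (-0.26 and -0.21) and Sdhc at 144 h (-0.26). The Sdhb call at 72 h was lost without DNMT3ABKO 72 h replicate 1 (0.0543) and at 144 h without DNMT3ABKO 0 h replicate 1 (0.0628) or either 144 h replicate (0.0763 and 0.0802), and the Sdhc call without 0 h replicate 2 (0.111) or 144 h replicate 2 (0.132). Sdhb in KH missed the test (-0.16 and -0.17, adjusted p = 0.066 and 0.0512).

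Complex III passes electrons from ubiquinol to cytochrome c. Its subunit gene Cyc1 lies outside the symbol rule and is described under other observations, where it was called in none of the 4 comparisons. All 8 of its members were tested, at 97.4 (Uqcrfs1) to 243 TPM (Uqcrh) in KH at 0 h, and the same 6 fell in all 4 comparisons. These were Uqcr10, Uqcr11, Uqcrc1, Uqcrfs1, Uqcrh and Uqcrq, whereas Uqcrb and Uqcrc2 were called in none. Uqcrq, a small accessory subunit, was at 109.4 and 119.9 TPM in KH at 0 h, at 59.8 and 64.9 TPM at 72 h and at 45.9 and 47.7 TPM at 144 h. In the other line it was at 112.4 and 114.7 TPM at 0 h, at 70.0 and 62.3 TPM at 72 h and at 66.7 and 67.4 TPM at 144 h. No treated library reached a 0 h library, and the KH 144 h libraries were the lowest of all 12. The differences were -0.87 ± 0.08 (adjusted p = 2.03e-05) and -1.27 ± 0.08 (8.28e-07) in KH and -0.77 ± 0.08 and -0.75 ± 0.08 in DNMT3ABKO.

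Uqcr10, another small accessory subunit, was at 227 and 207 TPM in KH at 0 h and at 133 to 137 TPM in the 4 treated libraries. The DNMT3ABKO libraries stood at 237 and 225 TPM at 0 h, at 134.6 and 136.2 TPM at 72 h and at 159 and 146 TPM at 144 h. It fell by 0.65 and 0.69 in KH and by 0.76 and 0.59 in DNMT3ABKO. Uqcrfs1, the Rieske iron-sulphur protein that hands the electron on, fell by 0.26 to 0.32 in all 4. The core protein genes parted, since Uqcrc1 went from 201 and 213 TPM in KH at 0 h to 168 to 181 TPM under treatment, while Uqcrc2 was at 93.6 and 108 TPM at 0 h and at 95.6 to 98.9 TPM under treatment.

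Complex V makes ATP. Of its 16 tested members, at 100.6 (Atp5k) to 1250 TPM (Atp5b) in KH at 0 h, 11 fell at both times in KH and 10 and 11 in DNMT3ABKO, with medians of -0.42, -0.39, -0.37 and -0.33. Neither gene of the catalytic pair of the F1 head was called lower. They were not alone in this, since Atp5f1 and Atp5j were also called in none of the 4 comparisons. Atp5b, the catalytic beta subunit and the most abundant member, was at 1183 and 1317 TPM in KH at 0 h and at 1263 to 1361 TPM under treatment, with overlap at 72 h and no call. In DNMT3ABKO it was at 1093 and 1295 TPM at 0 h and at 1423 and 1397 TPM at 144 h, where it rose by 0.24 (adjusted p = 0.0303, against 0.151 without DNMT3ABKO 0 h replicate 1 and 0.117 and 0.0885 without either 144 h replicate). Atp5a1, the alpha subunit, was at 645 and 707 TPM in KH at 0 h and at 620.5 to 644.5 TPM under treatment, and passed in none of the 4 comparisons. By contrast Atp5d, the delta subunit of the central stalk, was at 200 and 204 TPM in KH at 0 h and at 123 to 140.2 TPM under treatment, with differences of -0.62 and -0.62 in KH and -0.63 and -0.48 in DNMT3ABKO. It was named after its values were seen. Atp5s, outside the complex itself, was at 3.15 to 6.04 TPM over all libraries and rose in DNMT3ABKO at 72 h alone (0.49), a call lost without 0 h replicate 1.

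The c subunit, which forms the rotating ring of the membrane part, is encoded by Atp5g1, Atp5g2 and Atp5g3, whose mature proteins are alike and which differ in the import sequence. The starts of the 3 genes are shown because their transcripts moved by different amounts. Each line holds the 120 bases before the RefSeq start in GRCm38.p6, on the minus strand, with letters matching a searched motif in capitals.
Atp5g1, chr11:96075632-96075751: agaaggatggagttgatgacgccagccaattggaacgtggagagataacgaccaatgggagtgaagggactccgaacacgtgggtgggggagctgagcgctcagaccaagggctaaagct
Atp5g2, chr15:102671048-102671167: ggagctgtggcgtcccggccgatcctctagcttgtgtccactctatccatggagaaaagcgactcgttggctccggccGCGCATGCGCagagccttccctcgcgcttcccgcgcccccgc
Atp5g3, chr2:73911327-73911446: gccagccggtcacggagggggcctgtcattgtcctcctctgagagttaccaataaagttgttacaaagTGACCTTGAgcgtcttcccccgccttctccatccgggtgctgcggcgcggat
The Atp5g2 stretch holds the letters GCGCATGCG of nuclear respiratory factor 1 (NRF1), overlapping on both strands, the Atp5g3 stretch holds TCAAGGTCA, the letters of an estrogen-related receptor (ERR), on the reverse strand, and the Atp5g1 stretch holds no searched motif.

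Atp5g1 was at 199.9 and 219 TPM in KH at 0 h, at 115.6 and 122.7 TPM at 72 h and at 94.4 and 100.7 TPM at 144 h. Its DNMT3ABKO values were 214 and 223 TPM at 0 h, at 133.8 and 125.5 TPM at 72 h and at 175.6 and 136.7 TPM at 144 h. The KH libraries were ordered by time without overlap, whereas in DNMT3ABKO the 144 h libraries lay above the 72 h ones. Atp5g1 fell by 0.81 ± 0.11 and 1.10 ± 0.11 in KH and by 0.75 ± 0.11 and 0.49 ± 0.11 in DNMT3ABKO. Atp5g3 fell by 0.59, 0.50, 0.46 and 0.28 in the same order, and Atp5g2 by 0.26 and 0.35 in KH and 0.36 in DNMT3ABKO at 144 h, with -0.18 (adjusted p = 0.0638) at 72 h. Atp5g3 lost its call in DNMT3ABKO at 144 h without 0 h replicate 2 (0.0963) or 144 h replicate 2 (0.124), and Atp5g2 its call in KH at 72 h without KH 0 h replicate 2 (0.0987) or either 72 h replicate (0.059 and 0.0774). The share of Atp5g1 in the sum of the 3 genes went from 27.3% ± 0.01 (SD, n = 2) in KH at 0 h to 22.8% ± 1.0 at 72 h and 19.2% ± 0.5 at 144 h, and in DNMT3ABKO from 29.5% ± 2.0 to 24.1% ± 0.7 and 26.9% ± 2.9. The sum itself was 733 and 805 TPM in KH at 0 h and 500.4 to 523 TPM under treatment. Reads of Atp5g1 could also come from Gm10039, a near-identical sequence at 9.91% of the level of Atp5g1.

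**Figure D3:**
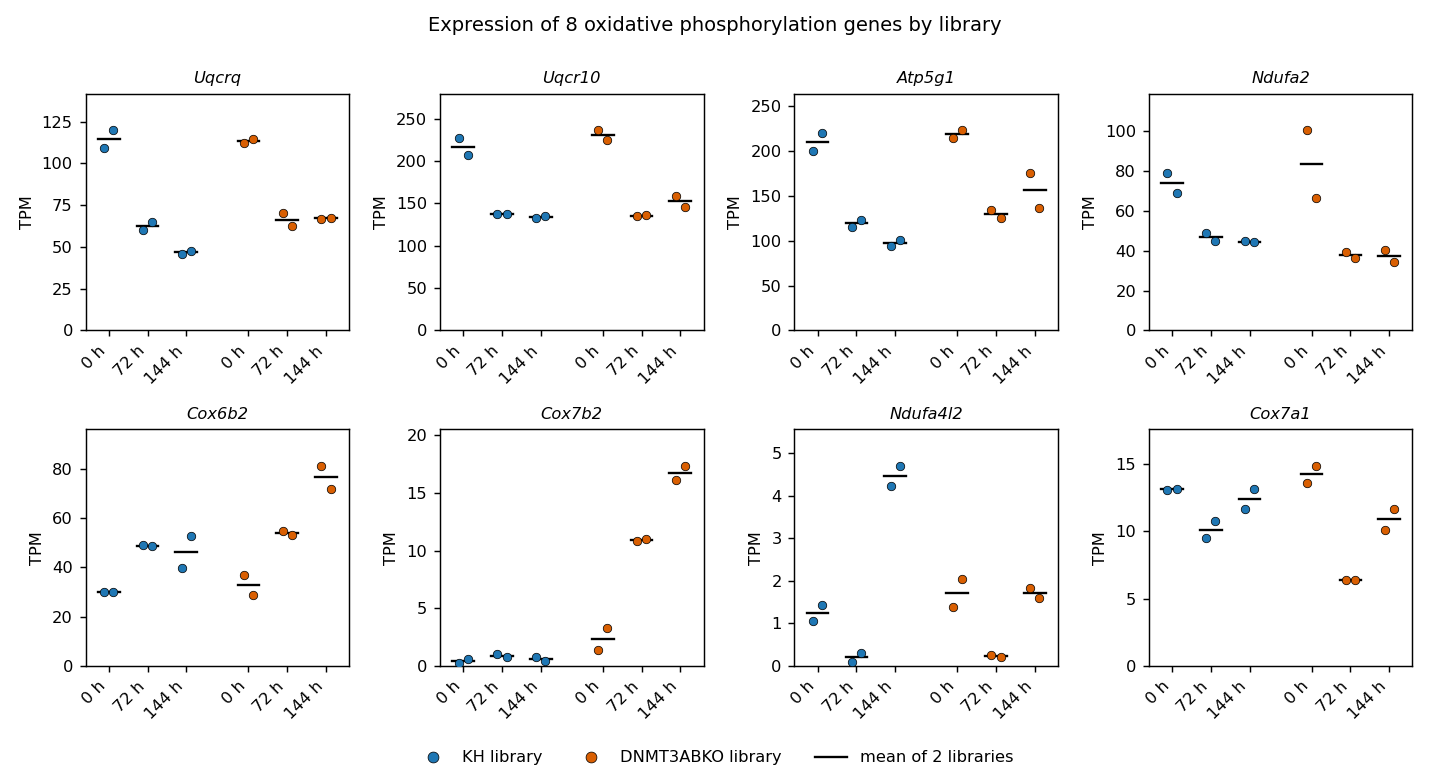
TPM per library (y axis, from 0) of 8 members in KH (blue) and DNMT3ABKO (orange) at 0, 72 and 144 h, with the mean of 2 libraries as a bar. Uqcrq, Uqcr10, Atp5g1 and Ndufa2 are lower in all treated libraries, Cox6b2 is higher in all of them, and Cox7b2 reaches 17.4 TPM in DNMT3ABKO but 1.00 TPM at most in KH.

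Complex IV, cytochrome c oxidase, reduces oxygen with electrons from cytochrome c, and its nuclear subunits surround a core from the mitochondrial genome. Of 17 tested genes, 7 fell and 2 rose in KH at 72 h, 6 fell and 3 rose at 144 h, and in DNMT3ABKO 6 fell and 3 rose, then 7 fell and 3 rose. Cox4i1, its most abundant member, was at 652 and 662 TPM in KH at 0 h, at 572 and 577 TPM at 72 h and at 518 and 525 TPM at 144 h. The DNMT3ABKO values were 585 and 543 TPM at 0 h, at 411 and 421 TPM at 72 h and at 439 and 428 TPM at 144 h. Both lines were lower under treatment without overlap, by 0.19 and 0.33 in KH and 0.44 and 0.38 in DNMT3ABKO, although its exons overlap those of Emc8 on the other strand and the strand setting of the counting is not given in the sources used here. The KH call of Cox4i1 at 72 h was lost without KH 0 h replicate 2 (adjusted p = 0.0688) or either 72 h replicate (0.0916 and 0.0786) and when scaled to nuclear protein-coding TPM (0.0567). Cox5a fell in all 4 comparisons, by 0.32 to 0.50. Cox5b fell in DNMT3ABKO at 144 h alone, from 127 and 147 TPM to 98.1 and 92.6 TPM (-0.52).

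Cox6a1, Cox8a and Cox6b1 are the widespread isoforms of their families. The partners of Cox4i1 (Cox4i2), Cox6a1 (Cox6a2) and Cox8a (Cox8b and Cox8c) stayed under 1 TPM throughout. Cox6b2, the partner of Cox6b1, did not and is described below. Cox8a was at 285 and 339.5 TPM in KH at 0 h and at 213 and 209.6 TPM at 144 h (-0.56), and fell in 3 of 4 comparisons. Its calls were lost in KH at 72 h without KH 0 h replicate 2 (adjusted p = 0.0858) or 72 h replicate 2 (0.0761), and in DNMT3ABKO at 144 h without 0 h replicate 2 (0.0945) or 144 h replicate 2 (0.128). Cox6a1 fell in 3, by 0.17 to 0.23, but each call was lost without replicate 1 of its own 0 h group (0.0502 to 0.183), and without the treated libraries compared (0.101 to 0.171) other than DNMT3ABKO 144 h replicate 1. A replicate block ended 2 of the 3 (0.0558 in KH at 144 h and 0.0639 in DNMT3ABKO at 72 h). Cox7a2, Cox7b, Cox7c and Ndufa4 were called in none. Cox7b was at 187 and 200.4 TPM in KH at 0 h and at 138 to 155 TPM under treatment (-0.35 and -0.46, not called). In DNMT3ABKO its 0 h replicates were at 115.7 and 193 TPM, with 135 to 153 TPM under treatment, so that its direction turned with the replicate left out (0.245 and 0.349 without replicate 2, against -0.12 and -0.02 with both). Ndufa4 (100.4 and 181.1 TPM) and Cox7c (277 and 457 TPM) had the same split between DNMT3ABKO 0 h replicates.

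Cox7a2l, a factor that joins complexes III and IV into supercomplexes, rose in all 4 comparisons by 0.22 to 0.27. It was at 118.7 and 134.5 TPM in KH at 0 h and at 145.6 to 148.3 TPM under treatment, and in DNMT3ABKO at 124.4 and 122.7 TPM at 0 h and at 146 to 149 TPM. The calls at 72 h were lost under median-ratio scaling (adjusted p = 0.141 and 0.148), the KH calls also without KH 0 h replicate 1 (0.131 and 0.135) or either treated KH replicate (0.0638 to 0.0946), the DNMT3ABKO call at 72 h also without 72 h replicate 2 (0.0511), and Gm6969, with near-identical sequence, stood at 52.7% of its level. Cox7a1, the heart and muscle isoform, was at 13.1 and 13.2 TPM in KH at 0 h and at 9.50 and 10.8 TPM at 72 h (-0.35), and at 11.6 and 13.2 TPM at 144 h. In DNMT3ABKO it went from 13.6 and 14.9 TPM to 6.37 and 6.42 TPM at 72 h (-1.04) and 10.1 and 11.7 TPM at 144 h (-0.36). Both lines were thus lowest at 72 h, and Cox7a1 rose from 72 to 144 h in DNMT3ABKO (0.68). Its KH call was lost without either KH 0 h replicate (adjusted p = 0.0623 and 0.0662) or 72 h replicate 1 (0.133), and its DNMT3ABKO call at 144 h without 144 h replicate 1 (0.103).

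Both restricted isoforms described next are usually found in testis. Cox6b2 (chr7:4751792-4753094 in mm10) and Cox7b2 (chr5:71442824-71548205) are the restricted partners of Cox6b1 and Cox7b. The 250 bases before each RefSeq start in GRCm38.p6 are shown to set each isoform beside its widespread partner in a comparison of lines with and without de novo DNA methyltransferases, and CpG dinucleotides, the sites of DNA methylation, are in capitals. DNA methylation was not analysed here.
Cox7b2, chr5:71548206-71548455, minus strand: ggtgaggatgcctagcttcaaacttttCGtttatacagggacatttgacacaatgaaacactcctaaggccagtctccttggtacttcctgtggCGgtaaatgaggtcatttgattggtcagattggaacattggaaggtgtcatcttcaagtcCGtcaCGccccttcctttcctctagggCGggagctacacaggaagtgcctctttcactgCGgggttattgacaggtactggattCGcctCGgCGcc
Cox7b, chrX:106015450-106015699, plus strand: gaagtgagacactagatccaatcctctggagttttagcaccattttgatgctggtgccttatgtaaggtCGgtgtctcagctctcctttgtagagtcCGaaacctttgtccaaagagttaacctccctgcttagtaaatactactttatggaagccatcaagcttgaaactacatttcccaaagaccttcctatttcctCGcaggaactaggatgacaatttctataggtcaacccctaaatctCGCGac
Cox6b2, chr7:4753095-4753344, minus strand: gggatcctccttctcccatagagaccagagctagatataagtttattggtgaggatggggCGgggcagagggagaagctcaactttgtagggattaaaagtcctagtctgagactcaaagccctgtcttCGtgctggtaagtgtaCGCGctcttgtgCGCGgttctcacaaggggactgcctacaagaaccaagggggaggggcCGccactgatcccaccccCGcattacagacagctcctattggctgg
Cox6b1, chr7:30626115-30626364, minus strand: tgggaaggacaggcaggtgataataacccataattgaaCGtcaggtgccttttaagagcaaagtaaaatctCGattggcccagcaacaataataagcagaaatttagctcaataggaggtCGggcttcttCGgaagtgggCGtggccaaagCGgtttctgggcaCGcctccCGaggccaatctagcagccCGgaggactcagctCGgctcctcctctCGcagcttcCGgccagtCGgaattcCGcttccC
These stretches hold 9 CpG (Cox7b2), 5 (Cox7b), 8 (Cox6b2) and 14 (Cox6b1), and the last capital of Cox6b1 begins a further CpG that ends in the transcript. Over windows from 250 bases before to 50 after the start, the 76 members with a RefSeq window held a median of 20 CpG, against 13 for all coding genes.

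Cox7b2 was at 0.22 and 0.57 TPM in KH at 0 h, at 1.00 and 0.77 TPM at 72 h and at 0.77 and 0.42 TPM at 144 h. The line without Dnmt3a and Dnmt3b had it at 1.36 and 3.28 TPM at 0 h, at 10.8 and 10.99 TPM at 72 h and at 16.1 and 17.4 TPM at 144 h. Each DNMT3ABKO library was above all KH libraries, and the DNMT3ABKO groups were ordered by time without overlap. The rise in limma was 1.91 ± 0.24 at 72 h (adjusted p = 0.000113) and 2.48 ± 0.24 at 144 h (1.41e-05) in DNMT3ABKO, and 0.45 ± 0.24 (0.157) and 0.20 ± 0.24 (0.529) in KH. Cox7b2 passed the filter of 1 TPM only through the DNMT3ABKO libraries, where it is high. Its p-values are therefore a description and no independent support. Its share of Cox7b plus Cox7b2 was 0.20% to 0.58% in KH and 1.4% ± 0.4 (SD, n = 2), 7.4% ± 0.2 and 10.2% ± 0.01 in DNMT3ABKO at 0, 72 and 144 h.

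Cox6b2 rose in both lines. It was at 30.2 and 29.8 TPM in KH at 0 h, at 48.9 and 48.7 TPM at 72 h and at 39.8 and 52.9 TPM at 144 h, and in DNMT3ABKO at 36.9 and 28.8 TPM, 54.9 and 53.0 TPM, and 81.4 and 71.6 TPM. Treated and 0 h libraries did not overlap in either line. The differences were 0.68 ± 0.14 and 0.60 ± 0.14 in KH and 0.71 ± 0.14 and 1.20 ± 0.14 in DNMT3ABKO, with adjusted p of 0.00275, 0.00492, 0.00166 and 4.5e-05. Its partner Cox6b1 fell in all 4 comparisons, by 0.20 to 0.60, where the KH call at 72 h was lost without any 1 of the 4 libraries compared (0.0633 to 0.183) and with a replicate block (0.072). The share of Cox6b2 in the pair went from 10.2% ± 0.4 (SD, n = 2) at 0 h to 17.5% ± 0.1 and 19.1% ± 3.1 in KH and from 11.6% ± 2.8 to 21.6% ± 0.2 and 31.6% ± 1.7 in DNMT3ABKO.

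Ndufa4l2, a partner of Ndufa4 that is known as a hypoxia-induced gene, moved in opposite ways at the 2 times in KH. It was at 1.06 and 1.42 TPM at 0 h, at 0.09 and 0.30 TPM at 72 h and at 4.23 and 4.72 TPM at 144 h, with differences of -0.90 ± 0.15 and 1.29 ± 0.15. In DNMT3ABKO it was at 1.39 and 2.04 TPM, then at 0.25 and 0.21 TPM (-1.14 ± 0.15) and at 1.84 and 1.61 TPM (0.01 ± 0.15). From 72 to 144 h it rose in both lines, by 2.20 and 1.15. These are low values, and 32 bases of its exons lie opposite Shmt2, which stood at 109.9 TPM.

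**Figure D4:**
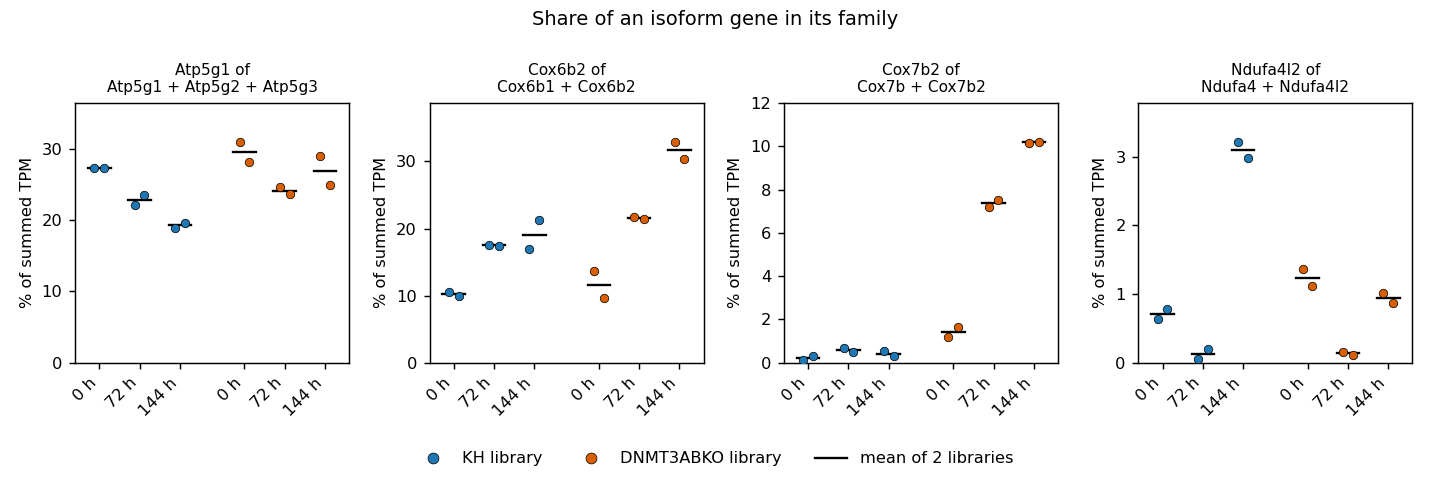
Share of 4 isoform genes in the summed TPM of their family (y axis, % from 0) per library in KH (blue) and DNMT3ABKO (orange) at 0, 72 and 144 h, with bars for the mean of 2 libraries. Cox7b2 makes up 10.2% of its pair in DNMT3ABKO at 144 h and at most 0.67% in KH, and Atp5g1 loses share in KH at both times.

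Between 72 and 144 h few members changed. In KH, 5 fell and 1 rose, where 22.9% of all genes were called (7.24% higher and 15.6% lower), and in DNMT3ABKO 4 fell and 4 rose, where 27.3% were called (8.81% higher and 18.5% lower). Under median-ratio scaling 3 fell and 3 rose in KH, where 15.5% of all genes were lower and 13.3% higher. In DNMT3ABKO that scaling gave 3 lower and 12 higher, where 17.7% of all genes were lower and 16.3% higher. With libraries scaled to nuclear protein-coding TPM, 9 were lower and 4 higher in DNMT3ABKO, where 24% of all genes were lower and 10.4% higher. The KH genes that fell were Ndufaf1 (-0.47), Uqcrq (-0.41), Cox6b1 (-0.23), Uqcr11 (-0.23) and Ndufb6 (-0.21). In DNMT3ABKO, Cox5b (-0.51), Ndufb11 (-0.28), Cox6b1 (-0.25) and Ndufs7 (-0.19) fell, and Ndufa4l2, Cox7a1, Cox6b2 (0.49) and Ndufaf5 (0.39) rose. Leaving out any 1 library left 2 to 4 calls in KH and 4 to 6 in DNMT3ABKO, and a replicate block left 3 in KH, ending the Cox6b1 calls in KH (adjusted p = 0.073) and DNMT3ABKO (0.0507) and that of Ndufs7 (0.0984). Cox6b1 lost its call in both lines without any 1 of the 4 libraries compared (adjusted p of 0.0909 to 0.168), and Ndufb11 and Ndufs7 in DNMT3ABKO likewise (0.0562 to 0.0659 and 0.122 to 0.23). The call of Cox6b2 was lost without either 72 h replicate (0.0874 and 0.116) or 144 h replicate 1 (0.155), and that of Ndufaf1 without KH 144 h replicate 2 (0.0525).

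At the same time point the lines differed in few members at 0 h and in more at 144 h. At 0 h, Cox7b2 was higher in DNMT3ABKO (1.20 ± 0.24) and Cox4i1 lower (-0.22 ± 0.06), where 9.06% of all genes were called (4.92% higher and 4.14% lower). Both rescalings of the libraries ended the Cox4i1 call (adjusted p = 0.241 and 0.168), leaving 2 members higher and 0 lower in limma, and without KH 0 h replicate 1 neither call held (0.0895 and 0.0957). Without KH 0 h replicate 2 the Cox4i1 call was lost as well (0.159), and a replicate block ended it too (0.095), leaving 1 member called. Cox7b2 passed the filter through its DNMT3ABKO libraries alone, since its KH means were under 1 TPM at all 3 times, and without the filter its 0 h call was lost (0.0572). Without DNMT3ABKO 0 h replicate 1, 2 members were higher and 1 lower, and without replicate 2, 6 were higher and 27 lower, where 32% of all genes were called. At 72 h, Cox7b2 was higher (2.66 ± 0.24), and Cox7a1 (-0.59), Cox4i1 (-0.46), Ndufaf7 (-0.44), Ndufaf3 (-0.38) and Ndufaf5 (-0.26) lower, where 19.3% of all genes were called (9.26% higher and 10% lower). Leaving out any 1 of the 4 libraries left 3 or 4 calls, and ended that of Ndufaf7 each time (adjusted p of 0.0511 to 0.26), as a replicate block did (0.0726).

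At 144 h under median-ratio scaling, 17 members were higher and 8 lower in DNMT3ABKO, where 16.4% of all genes were higher and 15.7% lower. For the values as deposited, 10 were higher and 10 lower, where 26.5% of all genes were called (11% higher and 15.5% lower). The higher ones were Cox7b2 (3.49 ± 0.24), Cox6b2 (0.72), Atp5g1 (0.66), Uqcrq (0.51), Ndufa1 (0.42), Cox6c (0.34), Atp5l (0.33), Ndufa11 (0.28), Uqcr11 (0.25) and Ndufs1 (0.22). The lower ones were Ndufa4l2 (-1.01), Ndufb11 (-0.45), Cox5b (-0.42), Ndufaf7 (-0.42), Ndufab1 (-0.38), Ndufa13 (-0.29), Ndufv2 (-0.28), Cox4i1 (-0.27), Ndufv3 (-0.26) and Cox6b1 (-0.24). They came from complexes I, III, IV and V. Leaving out any 1 library brought the count of 20 to between 10 and 12. It ended the calls of Ndufs1 (adjusted p of 0.0774 to 0.197) and Cox6b1 (0.107 to 0.137) each time, as a replicate block did (0.0726 and 0.0574), that of Ndufv2 without KH replicate 1 or either DNMT3ABKO replicate (0.0586 to 0.099), and those of Cox4i1 (0.0569 and 0.059) and Cox5b (0.0632 and 0.069) without KH or DNMT3ABKO replicate 2.

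**Figure D5:**
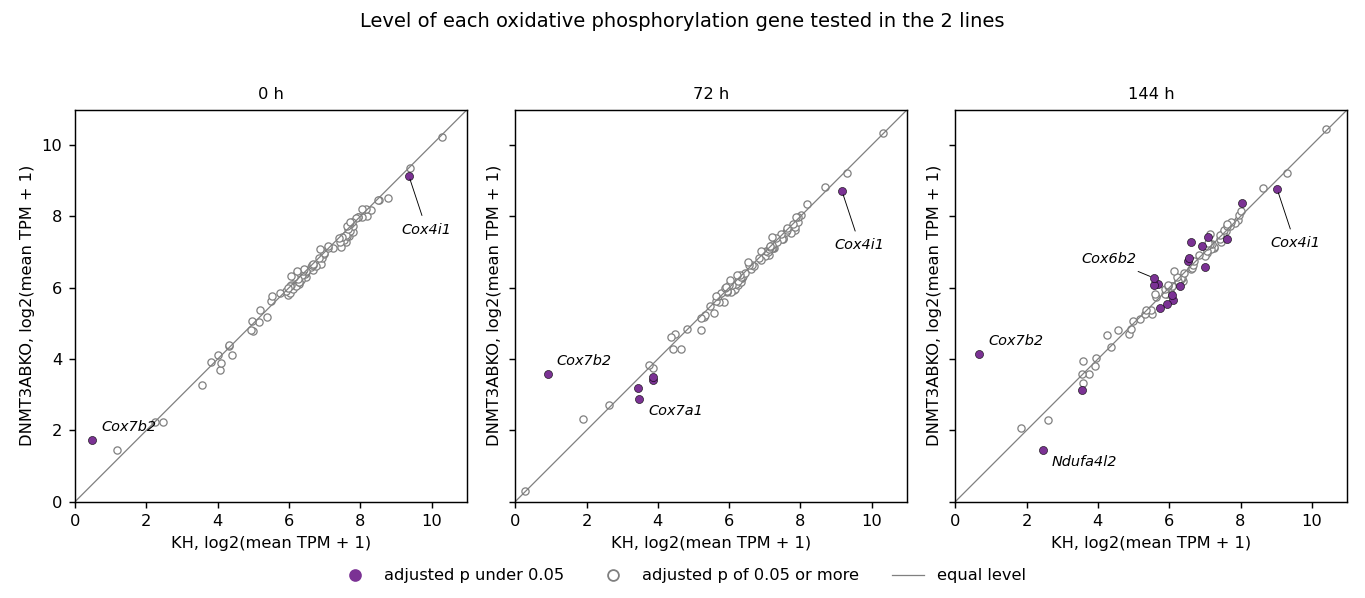
Mean level of each member tested in KH (x axis) and DNMT3ABKO (y axis), both as log2(mean TPM + 1), at 0, 72 and 144 h, with the line of equal level. Filled points passed an adjusted p of 0.05, of which there are 2 at 0 h, 6 at 72 h and 20 at 144 h, and Cox7b2 lies farthest above the line at each time.

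The difference between the lines in the response itself was tested as an interaction. At 72 h it was called for Cox7b2 (1.46 ± 0.34, a larger rise in DNMT3ABKO) and Cox7a1 (-0.70 ± 0.14, a larger fall), where 5.23% of all genes were called (3.38% positive and 1.86% negative). At 144 h it was called for Cox7b2 (2.28), Atp5g1 (0.60), Uqcrq (0.52), Ndufa1 (0.41) and Cox6c (0.38) in the positive direction and for Ndufa4l2 (-1.28) in the negative one, where 8.59% were called (4.89% positive and 3.7% negative). Atp5g1 and Uqcrq thus fell further in KH than in DNMT3ABKO. Ndufa1 and Cox6c, a complex I and a complex IV subunit, were at 48.6 to 52.8 and at 256 to 269.5 TPM in KH at 144 h and at 66.9 to 69.6 and 320.1 to 347 TPM in DNMT3ABKO. With 2 members called of 91 at 72 h and 6 at 144 h, the members stood below the shares called in either direction for the values as deposited. Their 5 positive calls at 144 h stood slightly above the positive share of 4.89%. Scaled to nuclear protein-coding TPM, the 72 h calls were 2 positive and 1 negative, where 4.8% and 4.09% of all genes were. The same scaling gave 8 positive and 4 negative of 91 at 144 h, where 6.48% and 7.24% of all genes were. There the positive calls stood above the background share and the negative calls below it. The counts that follow, with a library left out, have no background share beside them, so they were not compared with all genes. Without DNMT3ABKO 0 h replicate 1, 3 and 11 members were called, and without replicate 2, 20 and 28. Leaving out KH libraries or treated DNMT3ABKO libraries left 0 or 1 at 72 h and 2 to 4 at 144 h. At 72 h the Cox7b2 call was lost without the filter (adjusted p = 0.118) and without any 1 of those 6 libraries (0.0595 to 0.142), and the Cox7a1 call in each case but KH 72 h replicate 1 (0.0609 to 0.102). At 144 h the Atp5g1 call was lost without any KH library or DNMT3ABKO 144 h replicate 1 (0.0571 to 0.129), and the Uqcrq call without KH 0 h replicate 2, KH 144 h replicate 1 or either DNMT3ABKO 144 h replicate (0.055 to 0.0714). The Ndufa1 call was lost without any 1 of those 6 libraries (0.0631 to 0.147) and with a replicate block (0.0638), and the Cox6c call without any of them but DNMT3ABKO 144 h replicate 1 (0.0566 to 0.13). Cox7b2 and Ndufa4l2 at 144 h kept their calls without any 1 library. Cox7b2 passed the filter only through DNMT3ABKO, where it is high, so this is no independent support for it. With a pseudocount of 0.1 TPM the Ndufa4l2 difference missed the threshold (adjusted p = 0.0546).

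A list of 13 genes used here as a core (core subunits of complex I with Uqcrfs1, Atp5a1 and Atp5b, and Cox4i1, Cox5a and Cox5b, which lie against the catalytic core of complex IV but are not part of it) had medians of -0.09, -0.15, -0.15 and -0.15 in the 4 comparisons with 0 h, and the other 78 members medians of -0.26, -0.35, -0.23 and -0.26. In KH, 5 core genes fell at each time, against 38 and 42 of the others, and in DNMT3ABKO 6 fell at each time, against 38 and 44. Without the 3 complex IV genes the medians of the core were -0.04, -0.07, -0.06 and -0.14, with 3, 3, 4 and 3 of 10 lower. The difference between core and other members was not tested. The 35 members lower in all 4 comparisons had a median exon length of 1291 bases and the 20 called in none 1766 bases. Across the 91 members, the difference from 0 h and exon length had Spearman correlations of 0.16 to 0.24, against 0.02 to 0.07 across all genes tested. Genes are not independent replicates and share the same libraries, so these are descriptions.

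Set beside other gene groups, the members' medians lay near those of the mitochondrial ribosomal proteins, which translate the messages of the mitochondrial genome, and on the other side of 0 from those of the cytosolic ribosomal proteins. These differences between groups were not tested. Of 78 mitochondrial ribosomal proteins, 39 and 49 fell in KH and 40 and 45 in DNMT3ABKO at 72 and 144 h, with medians of -0.27, -0.37, -0.26 and -0.31. Of 84 cytosolic ribosomal proteins, 24 and 38 rose and 7 and 6 fell in KH, and 31 and 37 rose and 7 and 5 fell in DNMT3ABKO, with medians of 0.13 to 0.21. Their share called higher was 28.6% and 36.9% at 72 h, near that of all genes, and 45.2% and 44% at 144 h. The 13 subunits from the mitochondrial genome, which sit in complexes I, III, IV and V with the members, summed to 16120 and 19620 TPM in KH at 0 h, to 21630 and 22290 TPM at 72 h and to 17580 and 18590 TPM at 144 h. In KH, 0 of them were called at 72 h by limma, with 1 higher and 1 lower at an unadjusted p under 0.05, and 1 fell at 144 h. In DNMT3ABKO 10 rose at 72 h and 7 at 144 h (medians 1.24 and 1.06) against both 0 h libraries, and 1 fell at 144 h. Without 0 h replicate 1, 6 and 3 rose and 1 fell each time (medians 0.44 and 0.34).

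Promoter letters were searched on both strands in RefSeq windows from 250 bases before to 50 after the start (GRCm38.p6), which 76 of the 97 symbols had. GCGCATGCG (NRF1) was found in 10 members or 13.16%, against 2.613% of coding genes with a window and 1.95% of all genes with one. CCGGAAG, read by ETS factors such as GABPA, was found in 18 or 23.68%, against 12.94% of coding and 9.928% of all genes. ATGGCGGC (YY1) was found in 7 or 9.211%, against 3.499% and 2.605%. TCAAGGTCA (ERR) was found in Atp5g3 and Sdhd, against 0.3773% and 0.4662%. Of the 10 members with the NRF1 letters, 8 and 9 fell in KH and 7 and 8 in DNMT3ABKO, with medians of -0.31, -0.40, -0.31 and -0.30, and the 65 with a window lacking it had medians of -0.20, -0.27, -0.20 and -0.27. Of the 18 with the ETS letters, 10 and 13 fell in KH and 12 and 14 in DNMT3ABKO. The 7 with the YY1 letters had 2 and 3 lower in KH and 2 and 2 in DNMT3ABKO, with medians of -0.10, -0.15, 0.01 and 0.05, against -0.24, -0.32, -0.26 and -0.29 for the 68 without them. A match of letters is a description and not a binding site.

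Reads of some members could also belong to other genes. At an identity of 97% over at least 150 bases, 22 members shared a stretch with another gene in the annotation. For 13 those genes stood at 5% or more of the member's own TPM. Both counts take in genes that overlap a member on the opposite strand, such as Wdr77 (Atp5f1), Emc8 (Cox4i1) and Mrpl47 (Ndufb5). Among the 13 were Ndufs5 (84.2%), Atp5l (81.4%), Ndufb4 (71.0%), Cox7a2l (52.7%) and Ndufa12 (31.8%), whose values are uncertain to that extent. For Atp5f1 (69.3%) most of that level was Wdr77, at 135.7 TPM, an overlapping gene and not a copy. Exon bases were shared with a gene on the opposite strand by 29 members and on the same strand by 5.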

How the data were processed

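RNA of sorted ES cells had been depleted of ribosomal RNA and sequenced after ERCC spike-in RNA was added, and the notes of the labels name cutadapt 2.4, STAR 2.7.3a and StringTie 2.0 with the mm10 build. The values in TPM were deposited by the authors as one table per library, each scaled to a sum of 1000000, so the depth is unknown and intervals for counting error could not be had. Rows that repeated a gene identifier were summed. Groups came from the labels. Symbols, types and coordinates were those of the deposited tables. The 12 libraries were compared with limma 3.58.1 (R 4.3.3) on log2(TPM + 1), 1 coefficient for each of the 6 groups, with a mean-variance trend, over the 15727 genes whose mean reached 1 TPM. The 11 comparisons were each adjusted by the Benjamini-Hochberg method over all genes tested. The fit was tested on simulated data. Tables were handled in Python 3.11.15 with pandas 2.3.3 and NumPy 2.4.6, and drawn with matplotlib 3.10.9.

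The members, the gene lists and the tests were chosen with earlier results of these data known. Genes were named by rule where they were among at most 3 highest and 3 lowest called members of a comparison with groups that did not overlap, or belonged to an isoform family, complex II, the core list or a reported list, and other genes were named after their values were seen. The alternatives tried were no filter, a pseudocount of 0.1 TPM, 2 other scalings (the median ratio over genes and the sum over nuclear protein-coding genes), a fit of the groups compared alone, a replicate block and each library left out. The study states that the time points of a biological replicate were handled together, so blocked values stand beside results they change. Deviations of same-numbered libraries of a line correlated at -0.104 to 0.0996. A crossed replicate block was added after the data were seen. A library left out leaves its group with 1, which is then assumed to vary like the others. Promoter windows were RefSeq's for GRCm38.p6. Near-identical stretches were found by aligning annotated transcripts, which also picked up overlapping genes, and no protein sequence was used here. Single-gene values of some members are not reported here.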

Additional observations from a re-analysis of the deposited data

Results flagged for a closer look

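The results below stand out because limma found that KH and DNMT3ABKO differed in the response to mTORi itself, at an adjusted p under 0.05 over all genes tested. At 72 h the line difference in the response was 1.46 ± 0.34 (SE) on the log2 scale for Cox7b2 (adjusted p = 0.0389) and -0.70 ± 0.14 for Cox7a1 (0.0207). Cox7b2, the restricted partner of Cox7b, was higher in both DNMT3ABKO libraries at 72 h than at 0 h and not called in KH, and with a pseudocount of 0.1 TPM or without the filter on low values the 72 h difference was no longer called (0.348 and 0.118). Its KH means lay under 1 TPM, so it passed that filter through DNMT3ABKO. At 144 h the line difference for Cox7b2 was 2.28 ± 0.34 (0.0024).

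The other differences at 144 h were -1.28 ± 0.21 for Ndufa4l2 (adjusted p = 0.00473), 0.60 ± 0.15 for Atp5g1 (0.0355), 0.52 ± 0.11 for Uqcrq (0.0154), 0.41 ± 0.11 for Ndufa1 (0.0389) and 0.38 ± 0.09 for Cox6c (0.0301). Ndufa4l2 rose in KH from 1.06 and 1.42 TPM to 4.23 and 4.72 TPM and was not called in DNMT3ABKO, and with a pseudocount of 0.1 TPM its difference was -1.76 and missed the threshold (0.0546). Atp5g1 and Uqcrq fell in both lines, and by less in DNMT3ABKO. Leaving out 1 library ended the calls of Ndufa1 (without any KH library or either DNMT3ABKO 144 h library, 0.0631 to 0.147) and of Cox6c (without any KH library or DNMT3ABKO 144 h replicate 2, 0.0566 to 0.13), as it did for Atp5g1 and Uqcrq. All 5 of these differences rest on 2 libraries a group, among them the DNMT3ABKO 0 h replicates that stood apart. Without 0 h replicate 1 of DNMT3ABKO they were -1.452 (Ndufa4l2), 0.574 (Atp5g1), 0.507 (Uqcrq), 0.358 (Ndufa1) and 0.359 (Cox6c). Without its replicate 2 they were -1.107, 0.633, 0.535, 0.461 and 0.396 in the same order.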

How the results depend on the processing

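With 2 libraries a group and no read depth, the precision rests on the spread between libraries alone. No called member changed sign under any alternative run. The members called against 0 h stayed within 1.5 times of 47 and 51 in KH and of 52 and 60 in DNMT3ABKO with the other pseudocount, filter, scalings and replicate block. Fitting the compared groups alone gave 30 and 36 in DNMT3ABKO, and for the other comparisons 15 (KH 144 h against 72 h, from 6), 21 (DNMT3ABKO 144 h against 72 h, from 8), 0, 23 and 31 (lines at 0, 72 and 144 h, from 2, 6 and 20; the 0 in limma), and 1 and 3 (line difference in response, from 2 and 6). Nuclear protein-coding scaling gave 10 and 13 from 72 to 144 h in KH and DNMT3ABKO, 11 between lines at 72 h and 12 for the 144 h response, and median-ratio scaling 15 from 72 to 144 h in DNMT3ABKO and 10 for the 144 h response. Without a filter there were 1 between lines at 0 h and 1 for the 72 h response, and with the pseudocount of 0.1 TPM 1 for the latter. Under median-ratio scaling the median over members turned to 0.013 (KH) and 0.07 (DNMT3ABKO) from 72 to 144 h and to 0.046 between lines at 144 h. The cause was not tested.

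With one library left out, the calls ranged from 30 to 38 and 41 to 45 in KH and from 39 to 62 and 42 to 63 in DNMT3ABKO against 0 h, from 2 to 4 and 4 to 6 from 72 to 144 h, from 0 to 33, 3 to 4 and 10 to 12 between lines at 0, 72 and 144 h, and from 0 to 20 and 2 to 28 for the line difference in response. The highest of those, 33, 20 and 28, came without DNMT3ABKO 0 h replicate 2. For the 72 h response the members' median ranged from -0.057 to 0.041, and the difference of Cox7b in DNMT3ABKO lay between -0.49 and 0.245 (72 h) and between -0.386 and 0.349 (144 h), positive without 0 h replicate 2.

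The replicate block gave 3 calls from 72 to 144 h in KH and 1, 4 and 16 between lines at 0, 72 and 144 h. The calls that it ended for reported genes stand beside the results. A crossed block, added after the data were seen, gave 52 calls for DNMT3ABKO at 72 h.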

Other observations

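Genes outside the membership rule that serve the same pathway were read from lists of assembly factors, electron carriers, ubiquinone synthesis and regulators. Of the 3 electron carrier genes, Cycs, the somatic cytochrome c, fell in all 4 comparisons with 0 h and its testis partner Cyct rose in all 4. Cyc1, the remaining gene and a complex III subunit outside the symbol rule, was called in none. It was at 129.4 and 156.8, 119.3 and 116.2, and 124.1 and 138.9 TPM in KH at 0, 72 and 144 h. In DNMT3ABKO Cyc1 was at 102.4 and 138.5, 119.6 and 126.3, and 141.4 and 141.3 TPM. Cycs was at 43.0 and 43.9 TPM in KH at 0 h, at 24.4 and 26.1 TPM at 72 h and at 27.1 and 26.6 TPM at 144 h, and in DNMT3ABKO at 41.8 and 41.5, 29.1 and 25.3, and 31.5 and 35.2 TPM. Cyct was at 15.1 and 14.6, 22.3 and 22.9, and 33.8 and 30.1 TPM in KH, and at 23.4 and 30.2, 50.6 and 47.1, and 46.6 and 50.2 TPM in DNMT3ABKO. Treated and 0 h libraries did not overlap for either gene in either line. The differences in limma were -0.76, -0.68, -0.60 and -0.31 for Cycs and 0.57, 1.05, 0.85 and 0.84 for Cyct, each with an adjusted p under 0.05.

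Of the complex IV assembly factors outside the rule, 8 and 13 of 21 were lower in KH at 72 and 144 h, and 4 and 7 in DNMT3ABKO, against 3, 2, 4 and 1 higher. In KH these shares lower (38.1% and 61.9%) lay above those of all genes (19.5% and 23.9%), and in DNMT3ABKO (19% and 33.3%) they lay near them (21.6% and 26.2%). Of the 7 complex I assembly factors outside the rule, 28.6%, 42.9%, 28.6% and 57.1% were higher and 14.3%, 14.3%, 0% and 28.6% lower in the 4 comparisons. Of all genes, 28.3%, 27.4%, 34.3% and 31.4% were higher and 19.5%, 23.9%, 21.6% and 26.2% lower. Among the 7, Tmem126b (0.39, 0.48, 0.44 and 0.79) and Tmem186 (0.88, 0.64, 1.02 and 0.69) rose in all 4 comparisons. The 4 assembly factors of complex II were 25%, 50%, 25% and 50% lower and 0% higher, and among them Sdhaf4 fell by 0.70, 0.83, 0.95 and 0.98. The 6 of complex III were 16.7%, 33.3%, 16.7% and 66.7% lower and 16.7%, 0%, 16.7% and 16.7% higher. Among these 6, Uqcc2 fell by 0.64, 0.60, 0.84 and 0.85. Of 13 genes of ubiquinone synthesis, 5 rose and 3 fell in KH at 72 h, 2 rose and 2 fell at 144 h, and in DNMT3ABKO 4 rose and 2 fell, then 2 rose and 4 fell, which is 15.4% to 38.5% higher where 27.4% to 34.3% of all genes were. Coq8a rose in all 4 comparisons (1.16, 0.84, 0.93 and 0.92). Of 14 regulators, 3, 5, 5 and 4 rose and 1 fell in DNMT3ABKO at 72 h, and the shares higher (21.4%, 35.7%, 35.7% and 28.6%) lay near those of all genes. Twnk, the helicase of mitochondrial DNA, rose in all 4 (0.62, 0.30, 0.58 and 0.34). Atpif1, the inhibitor of ATP synthase, was at -0.14 (not called), -0.34, -0.39 and -0.89, and its response at 144 h differed between the lines by -0.55 ± 0.09 (adjusted p = 0.00451).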
